A study of Mus musculus with 8 samples.

Results

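The aminoacyl-tRNA synthetases of the cytosol and of the mitochondria were examined in sorted leukaemic bone marrow cells with and without knockdown of Fubp1. The set was chosen by gene name alone and holds 36 genes of the 47729 in the deposited count table, 20 for cytosolic and 16 for mitochondrial enzymes. All 36 passed the filter on low counts, which kept 13462 genes. The names ending in the digit 2 mark the mitochondrial enzymes. The members are a preset family and were not picked for their values, although earlier results of these data were known when the family was proposed.

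The Fubp1 knockdown group held 4 C57BL/6 mice whose marrow cells carried BCR-ABL1 and an shRNA against Fubp1, and the scrambled group held 4 C57BL/6 mice whose cells carried BCR-ABL1 and a scrambled shRNA. In both groups donor marrow came from mice given 5-fluorouracil, BCR-ABL1 was delivered by a retrovirus with a red fluorescent reporter and the shRNA by a lentivirus with the Venus reporter, and the recipients were irradiated before transplantation. BCR-ABL1 is the fusion kinase of chronic myeloid leukaemia, for which these mice serve as a model. Live, lineage-negative cells positive for both reporters were sorted, and each library came from 1 mouse. The age of the mice and the sequence of the shRNA were not used here.

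An aminoacyl-tRNA synthetase joins an amino acid to the transfer RNA that carries the matching anticodon, which makes it the step at which the genetic code is read into protein. Class I and class II enzymes have unrelated catalytic folds. In the mammalian cytosol, several of them are held with scaffold proteins in the multisynthetase complex, and the others work free of it. The mitochondrial enzymes are encoded in the nucleus, made in the cytosol and imported, and they charge the tRNAs used to translate the respiratory chain subunits of the mitochondrial genome. Glycyl and lysyl synthetase are made for both compartments from the same genes, Gars and Kars, and Eprs encodes a fused enzyme for glutamate and proline. Mitochondria lack a glutaminyl enzyme of their own and make that charged tRNA from a glutamate-charged one.

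Promoter sequences from RefSeq (GRCm38.p6), 250 bases before to 50 bases after the annotated start, were matched by symbol for 26 of the 36 genes. Those of Qars, Ears2 and Fars2 are shown because these genes were lower in the knockdown. Hars2, also lower, was not among the matched genes. The promoters of Gars, Tars and Aars are shown because they hold the core of the composite element bound by ATF4, the transcription factor of the amino acid response. Iars and Yars hold that core too and are not shown. Capitals mark TGATGNAA on either strand, and CACGTG, the E-box read by MYC and its relatives. The windows are chr9:108507755-108508054 on the plus strand for Qars, chr7:122067037-122067336 on the minus strand for Ears2, chr13:36117393-36117692 on the plus strand for Fars2, chr6:55037751-55038050 on the plus strand for Gars, chr15:11399609-11399908 on the minus strand for Tars and chr8:111033592-111033891 on the plus strand for Aars.
Qars: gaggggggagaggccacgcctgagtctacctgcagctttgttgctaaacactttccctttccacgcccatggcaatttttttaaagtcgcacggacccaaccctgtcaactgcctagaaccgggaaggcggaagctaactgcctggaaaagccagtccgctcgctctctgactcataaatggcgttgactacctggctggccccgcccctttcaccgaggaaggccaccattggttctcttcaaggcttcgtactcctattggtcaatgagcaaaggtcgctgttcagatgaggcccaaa
Ears2: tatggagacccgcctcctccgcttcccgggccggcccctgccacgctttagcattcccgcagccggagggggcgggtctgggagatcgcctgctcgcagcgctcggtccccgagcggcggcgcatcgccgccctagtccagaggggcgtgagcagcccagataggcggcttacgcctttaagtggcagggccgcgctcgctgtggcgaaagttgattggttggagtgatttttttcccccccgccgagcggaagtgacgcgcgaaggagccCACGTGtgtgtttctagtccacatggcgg
Fars2: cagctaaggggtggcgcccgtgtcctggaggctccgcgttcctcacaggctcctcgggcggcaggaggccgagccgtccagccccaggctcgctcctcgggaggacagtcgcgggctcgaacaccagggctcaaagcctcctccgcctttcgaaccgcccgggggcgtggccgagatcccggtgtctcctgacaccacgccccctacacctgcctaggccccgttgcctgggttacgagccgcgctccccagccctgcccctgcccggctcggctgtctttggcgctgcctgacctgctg
Gars: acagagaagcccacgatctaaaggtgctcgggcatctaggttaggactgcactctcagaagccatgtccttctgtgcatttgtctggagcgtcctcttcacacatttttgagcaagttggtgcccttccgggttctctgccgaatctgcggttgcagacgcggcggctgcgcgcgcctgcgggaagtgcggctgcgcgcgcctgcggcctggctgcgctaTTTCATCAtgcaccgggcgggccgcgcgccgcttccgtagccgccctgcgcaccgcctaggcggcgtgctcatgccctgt
Tars: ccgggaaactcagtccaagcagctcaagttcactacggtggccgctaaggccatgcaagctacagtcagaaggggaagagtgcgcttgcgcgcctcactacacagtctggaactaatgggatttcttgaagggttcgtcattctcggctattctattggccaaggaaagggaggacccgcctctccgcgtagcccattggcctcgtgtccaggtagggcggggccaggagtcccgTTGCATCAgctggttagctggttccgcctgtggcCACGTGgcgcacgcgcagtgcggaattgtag
Aars: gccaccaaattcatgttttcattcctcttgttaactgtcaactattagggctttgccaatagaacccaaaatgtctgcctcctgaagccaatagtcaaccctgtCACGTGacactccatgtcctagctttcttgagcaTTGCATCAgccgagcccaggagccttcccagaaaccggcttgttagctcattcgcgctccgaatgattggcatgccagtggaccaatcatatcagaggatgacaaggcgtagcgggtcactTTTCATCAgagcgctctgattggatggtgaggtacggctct

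The core TGATGNAA was found on either strand in the promoters of 5 of 12 matched cytosolic genes, Aars, Gars, Iars, Tars and Yars, and of 0 of 14 matched mitochondrial genes. Of the 27025 genes in the promoter table, 4.51% held it in a window. The E-box CACGTG was found in Aars, Ears2, Farsb, Iars and Tars, against 8.09% of all genes. The Gars match began 30 bases upstream of the start and the Tars match 15 bases upstream, and Aars held 1 match 112 bases upstream and another 9 bases downstream. The motifs do not overlap each other in these windows. The 5 genes with the TGATGNAA core had a median log2 fold change of -0.0021, running from -0.22 for Aars to 0.051 for Tars. The 21 matched genes without it had a median of -0.14. All 14 matched mitochondrial genes were among those 21, so the medians also differ in compartment. These matches describe the letters in the windows only.

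The knockdown of the targeted gene was modest. Fubp1 measured 281, 228, 220 and 239 CPM (counts per 1e6, after TMM scaling of each library) in knockdown replicates 1 to 4, against 296, 284, 291 and 396 CPM in scrambled replicates 1 to 4. The knockdown mean was 76.4% of the scrambled mean and every knockdown mouse lay below every scrambled one. The log2 fold change of -0.39 (SE 0.12) did not pass the threshold by edgeR's quasi-likelihood test (adjusted p = 0.0604) or by limma-voom, and DESeq2 called it lower. Libraries held 24042761 to 44761356 counts in the knockdown group and 22465303 to 38495006 in the scrambled group, and the members took 0.810 to 0.894% of the counts in the knockdown and 0.877 to 0.913% in the scrambled libraries. A member had at least 196 counts in every library. Of the T cell markers that the sort should remove, Cd3e had 0 counts in all 8 libraries, and the summed T cell markers reached at most 0.201 CPM in the knockdown and 0.0308 CPM in the scrambled libraries. The B cell markers Cd79a and Ebf1 together had 0.201 to 0.958 CPM in the knockdown and 0.0450 to 0.130 CPM in the scrambled libraries, and 1 of them was called higher by DESeq2.

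The groups also differed in markers of the sorted cells. The 6 early granulocyte markers summed to 1964, 943, 86.0 and 3591 CPM in knockdown replicates 1 to 4, against 35.5, 164, 330 and 83.5 CPM in scrambled replicates 1 to 4, with fitted changes of 3.27 to 3.70 on the log2 scale. By edgeR and by limma-voom 0 of the 6 passed the threshold, by DESeq2 all 6 were called higher, and all 6 had an unadjusted edgeR p under 0.05. The 6 erythroid markers summed to 3562 to 4881 CPM in the knockdown and 5609 to 6931 CPM in the scrambled libraries, and 5 of the 6 fell. Of 3 megakaryocyte markers, 2 rose, with sums of 107 to 186 CPM in the knockdown and 47.2 to 62.0 CPM in the scrambled libraries. Of all genes tested, 7.29% fell and 8.02% rose. The 3 macrophage markers summed to 27.6, 3.501, 0.793 and 25.2 CPM in knockdown replicates 1 to 4, against 0.222, 1.48, 1.22 and 0.584 CPM in scrambled replicates 1 to 4. Of these 0 passed by edgeR or limma-voom, 1 had an unadjusted edgeR p under 0.05 and 2 were called higher by DESeq2. Knockdown replicate 3 was within the scrambled range for both the granulocyte and the macrophage sum, and the other 3 knockdown libraries were above it. The part that this difference in makeup has in the synthetase results was not tested. In these bulk libraries fewer cells of a type and less RNA per cell cannot be told apart.

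The synthetase genes were slightly lower in the knockdown, and few of them passed the test. By edgeR's quasi-likelihood test with adjustment over all 13462 genes, 4 of the 36 fell (11.1%) and 0 rose, where 7.29% of all genes tested fell and 8.02% rose. The genes that fell were cytosolic Qars and mitochondrial Ears2, Fars2 and Hars2. At an unadjusted p under 0.05 there were 12 members, all lower, where 15.5% of all genes were. A value below 0 was fitted for 29 of the 36 (80.6%), against 49.8% of all genes tested, and over the alternatives this number ran from 27 to 34. The median log2 fold change was -0.14 for the 20 cytosolic and -0.16 for the 16 mitochondrial genes, beside 0.0012 for all genes. The groups did not overlap in 9 of the 36 (25%), each with the knockdown lower, where 11.1% of all genes were so ordered. DESeq2 called 6 of the 36 lower, adding Lars and Farsa, where it called 10.0% of all genes lower, and limma-voom called the same 4 as edgeR, where it called 6.84%.

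**Figure D1:**
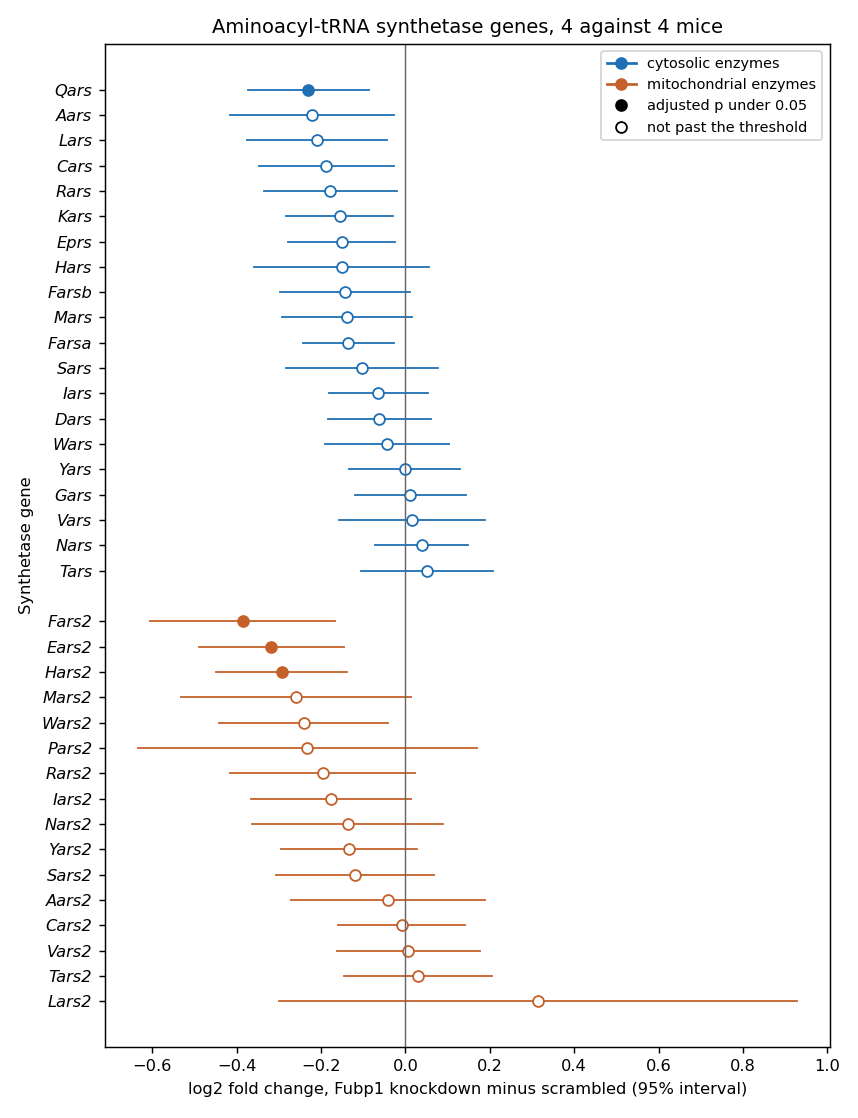
Log2 fold change (x axis, knockdown minus scrambled) with its 95% interval for each of the 36 synthetase genes (y axis), cytosolic genes above and mitochondrial genes below, filled where the adjusted p was under 0.05. The 4 filled points, Qars, Fars2, Ears2 and Hars2, all lie below 0, and the interval of Lars2, from -0.30 to 0.93, is the widest.

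All 8 cytosolic enzymes of the multisynthetase complex had fitted values below 0, with a median of -0.15, and 1 fell. Qars, glutaminyl-tRNA synthetase (ENSMUSG00000032604, chromosome 9 from 108507706 to 108515941 on the plus strand, GENCODE M21 on GRCm38), measured 288, 299, 327 and 276 CPM in knockdown replicates 1 to 4, against 364, 352, 351 and 328 CPM in scrambled replicates 1 to 4. The groups did not overlap, although knockdown replicate 3 came close to scrambled replicate 4. Its mean was 297 ± 21.7 CPM in the knockdown and 349 ± 14.8 CPM in the scrambled libraries (SD, n = 4 per group). The log2 fold change was -0.23 (SE 0.06, edgeR adjusted p = 0.0418). The call was lost without any 1 of knockdown replicates 1, 2 and 4 or scrambled replicates 1 to 3, with an adjusted p of up to 0.103, and with no low count filter (0.0585).

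The fused glutamyl-prolyl enzyme gene Eprs had 634, 681, 676 and 598 CPM in the knockdown libraries, against 722, 695, 740 and 717 CPM in the scrambled libraries. Kars, lysyl-tRNA synthetase of both compartments, had 431, 447, 441 and 387 CPM in the knockdown libraries, against 480, 462, 482 and 476 CPM in the scrambled libraries. In both genes every knockdown mouse lay below every scrambled one, and neither passed the test (log2 fold change -0.15 with an edgeR adjusted p of 0.0935 for Eprs, and -0.16 with 0.0898 for Kars). Rars, arginyl-tRNA synthetase, also had groups that did not overlap, at 221 ± 16.2 CPM in the knockdown and 250 ± 15.6 CPM in the scrambled libraries (SD, n = 4 per group; edgeR adjusted p = 0.111). Lars, leucyl-tRNA synthetase, measured 280, 306, 335 and 284 CPM in the knockdown libraries, against 364, 318, 348 and 364 CPM in the scrambled libraries, with a log2 fold change of -0.21 (edgeR adjusted p = 0.0823). Here knockdown replicate 3 lay above scrambled replicate 2. Iars, Mars and Dars, for isoleucine, methionine and aspartate, had fitted changes of -0.06, -0.14 and -0.06 with overlapping groups.

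Where 7.29% of all genes tested fell, 1 of the complex's 3 scaffold genes did, Aimp1. It measured 119 ± 8.62 CPM in the knockdown and 142 ± 4.27 CPM in the scrambled libraries (SD, n = 4 per group). Its log2 fold change was -0.25 (edgeR adjusted p = 0.0322). Eef1e1 was fitted at -0.24 (edgeR adjusted p = 0.129) and Aimp2 at -0.02 (0.869). The summed level of the 8 synthetases of the complex was 2777, 2911, 3015 and 2633 CPM in the knockdown libraries, against 3140, 3052, 3204 and 3161 CPM in the scrambled libraries. The groups did not overlap in this sum, which is given as a description with no test.

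Of the 12 cytosolic enzymes outside the complex, 0 fell and 0 rose by edgeR, with 3 at an unadjusted p under 0.05, all lower. DESeq2 called 1 of them lower, Farsa, and limma-voom called 0. Aars, alanyl-tRNA synthetase, was the most shifted of them, at 459, 469, 549 and 441 CPM in the knockdown libraries, against 557, 535, 516 and 627 CPM in the scrambled libraries (log2 fold change -0.22, edgeR adjusted p = 0.108). Knockdown replicate 3 lay above the lowest 2 scrambled libraries. Farsa, the alpha subunit of the phenylalanyl enzyme, had groups that did not overlap, at 220 ± 9.04 CPM in the knockdown and 242 ± 4.18 CPM in the scrambled libraries (SD, n = 4 per group; edgeR adjusted p = 0.0864), and DESeq2 called it lower (adjusted p = 0.0416). Its partner subunit Farsb was fitted at -0.14 and overlapped between the groups. Cars, for cysteine, was fitted at -0.19, Hars, for histidine, at -0.15, Sars, for serine, at -0.10 and Wars, for tryptophan, at -0.04.

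At the other end lay 5 cytosolic genes with fitted changes between -0.0021 and 0.051, Yars, Gars, Vars, Nars and Tars, for tyrosine, glycine, valine, asparagine and threonine. Gars had 498, 539, 588 and 521 CPM in the knockdown libraries, against 540, 523, 539 and 527 CPM in the scrambled libraries, so that the scrambled mice lay within the spread of the knockdown mice. The 95% interval of its log2 fold change ran from -0.12 to 0.14. Vars was the most abundant member in CPM, at 941 ± 94.1 CPM in the knockdown and 930 ± 44.1 CPM in the scrambled libraries (SD, n = 4 per group), with an interval from -0.16 to 0.19. The fitted sign of Yars, Gars, Vars and Nars changed with at least 1 of the alternative settings, and that of Tars did not.

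Knockdown replicate 3 stood apart from the other knockdown mice in the cytosolic genes. The summed level of the 20 cytosolic members was 6953, 7298, 7850 and 6698 CPM in knockdown replicates 1 to 4, against 7766, 7443, 7654 and 7873 CPM in scrambled replicates 1 to 4. Replicate 3 therefore lay within the scrambled range and the other 3 knockdown libraries below it. This is the knockdown library with the lowest granulocyte marker sum, 86.0 CPM, and knockdown replicate 4, with the highest, 3591 CPM, had the lowest synthetase sum; the part of that difference was not tested. Without knockdown replicate 3, 6 of the 20 cytosolic genes fell, Qars, Lars, Cars, Aars, Farsb and Hars, and 0 rose, where 10.6% of all genes fell. Without any other library the number was 0 or 1.

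**Figure D2:**
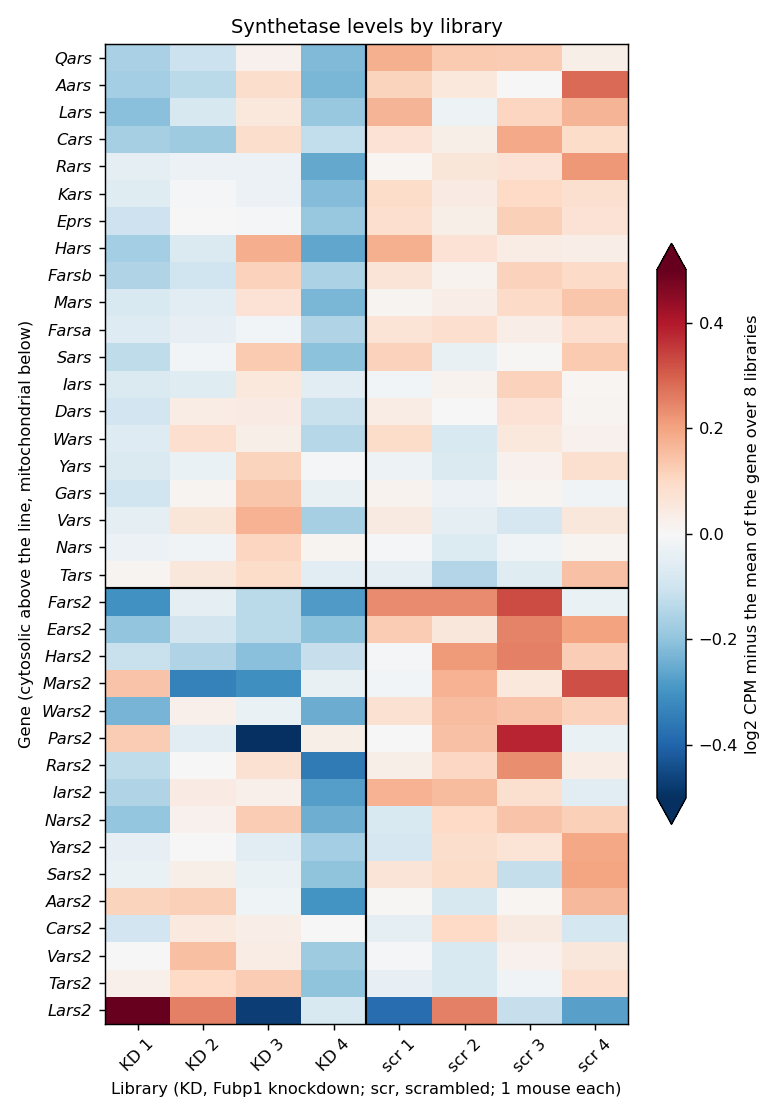
Level of each synthetase gene (rows, cytosolic above the line and mitochondrial below, each ordered by fold change) in each library (columns, knockdown mice left and scrambled mice right), as log2 CPM minus the gene's mean over the 8 libraries; the colour scale is clipped at its ends. Qars, Ears2, Fars2 and Hars2 are lower in all 4 knockdown columns than in all 4 scrambled ones, and Lars2 in the last row is both highest and lowest in knockdown mice.

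The mitochondrial enzymes held 3 of the 4 genes that fell. Fars2, mitochondrial phenylalanyl-tRNA synthetase (chromosome 13 from 36117412 to 36726280 on the plus strand), measured 30.1, 35.97, 33.8 and 30.5 CPM in knockdown replicates 1 to 4, against 43.8, 43.7, 46.6 and 36.2 CPM in scrambled replicates 1 to 4. The groups did not overlap, and scrambled replicate 4 was close to the highest knockdown library. Its means were 32.6 ± 2.81 CPM in the knockdown and 42.6 ± 4.43 CPM in the scrambled libraries (SD, n = 4 per group). Its log2 fold change of -0.39 (SE 0.10, edgeR adjusted p = 0.0321) was the most negative of the 36 members.

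Ears2, mitochondrial glutamyl-tRNA synthetase (chromosome 7 from 122037213 to 122067263 on the minus strand), had 19.2, 20.7, 20.1 and 19.1 CPM in the knockdown libraries, against 24.1, 22.9, 26.2 and 25.3 CPM in the scrambled libraries. The knockdown mice lay close together and all below the scrambled mice, with a log2 fold change of -0.32 (SE 0.08, edgeR adjusted p = 0.0286). Hars2, mitochondrial histidyl-tRNA synthetase on chromosome 18, had 51.4, 49.9, 48.0 and 51.2 CPM in the knockdown libraries, against 55.2, 64.2, 66.1 and 60.4 CPM in the scrambled libraries. Its log2 fold change was -0.29 (SE 0.07, edgeR adjusted p = 0.0267), and the groups did not overlap. Fars2, Ears2 and Hars2 kept their calls without knockdown replicate 3 and without scrambled replicate 4. Fars2 also kept it without knockdown replicate 2 and Hars2 without scrambled replicate 1. Every other library left out ended the call of each, with adjusted p from 0.0500 to 0.0954.

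**Figure D3:**
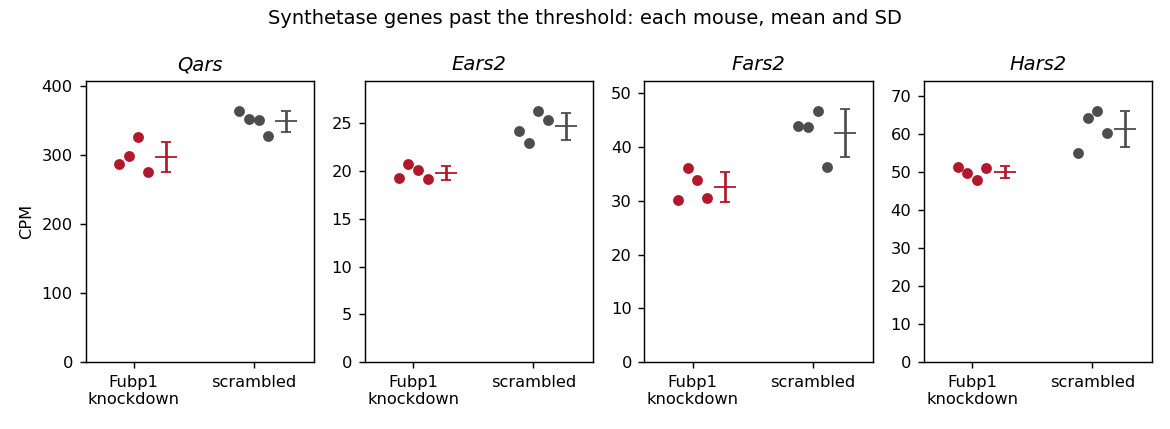
CPM (y axis) of Qars, Ears2, Fars2 and Hars2 in each knockdown mouse (left) and each scrambled mouse (right) as points, with the group mean and SD beside them. In each of the 4 panels, which have their own scales, all knockdown points lie below all scrambled points. The gap is narrow in Fars2, at 35.97 against 36.2 CPM, and in Qars, at 326.7 against 328.3 CPM.

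Of the other mitochondrial genes, Wars2, for tryptophan, also had groups that did not overlap, at 19.1 ± 1.85 CPM in the knockdown and 22.6 ± 0.534 CPM in the scrambled libraries (SD, n = 4 per group; edgeR adjusted p = 0.0931). Mars2, for methionine, had 70.1, 50.2, 51.3 and 61.8 CPM in the knockdown libraries, against 62.9, 71.5, 65.8 and 79.4 CPM in the scrambled libraries, with a log2 fold change of -0.26 (edgeR adjusted p = 0.167). Knockdown replicates 2 and 3 were low and replicate 1 lay among the scrambled mice. Pars2, Rars2, Iars2, Nars2, Yars2 and Sars2, for proline, arginine, isoleucine, asparagine, tyrosine and serine, had fitted changes from -0.23 to -0.12. Aars2, Cars2, Vars2 and Tars2, for alanine, cysteine, valine and threonine, lay between -0.04 and 0.03, and their sign changed with at least 1 alternative setting.

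Lars2, mitochondrial leucyl-tRNA synthetase (chromosome 9 from 123366927 to 123462666 on the plus strand), had the widest spread among mice. It measured 516, 350, 212 and 279 CPM in knockdown replicates 1 to 4, against 226, 350, 271 and 244 CPM in scrambled replicates 1 to 4. The highest and the lowest library were both knockdown mice, and the log2 fold change of 0.31 (SE 0.27, edgeR adjusted p = 0.455) was 0.045 without knockdown replicate 1. Genes set beside it were chosen after its values were seen. CT010467.1, which GENCODE M21 annotates as a ribosomal RNA gene on chromosome 17, had 1806, 896, 439 and 862 CPM in the knockdown libraries, against 485, 883, 703 and 630 CPM in the scrambled libraries. Gm15564, an antisense RNA gene on chromosome 16, had 96.6, 62.1, 24.1 and 43.0 CPM in the knockdown libraries, against 27.2, 56.8, 37.8 and 34.4 CPM in the scrambled libraries. Both ranked the 8 libraries in the same order as Lars2, from knockdown replicate 1 down to knockdown replicate 3. Gm26917, a noncoding RNA gene beside CT010467.1, ranked them in another order, with 569, 511, 202 and 225 CPM in the knockdown libraries, against 193, 357, 213 and 236 CPM in the scrambled libraries. Its highest 3 libraries were those of Lars2, and its lowest was scrambled replicate 1. The annotated transcripts of Gm15564 and Lars2 share 22 words of 31 bases on either strand, and those of CT010467.1 and Lars2 share 0. The mitochondrial ribosomal RNA mt-Rnr2 rose, at 400.4 ± 62.4 CPM in the knockdown and 243 ± 7.35 CPM in the scrambled libraries (SD, n = 4 per group; edgeR adjusted p = 0.00564), and mt-Rnr1 did not pass the test (159 ± 44.0 CPM in the knockdown and 116 ± 6.88 CPM in the scrambled libraries, 0.113). The labels name more than one kit for ribosomal RNA depletion without saying which library had which, and the part of ribosomal RNA left in a library was not tested.

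**Figure D4:**
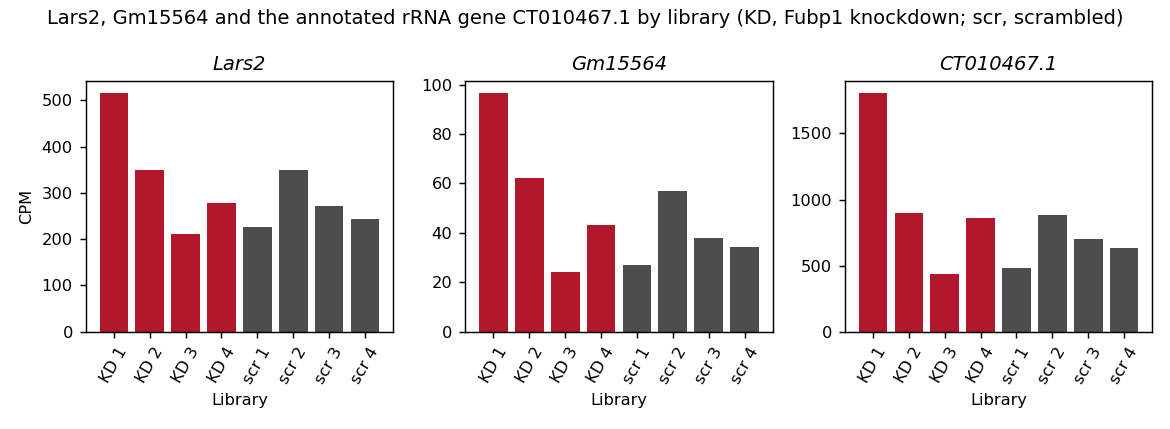
CPM (y axis, from 0, with its own scale in each panel) of Lars2, Gm15564 and CT010467.1 in the 4 knockdown libraries (red, left) and the 4 scrambled libraries (grey, right). In all 3 panels knockdown replicate 1 is the highest bar and knockdown replicate 3 the lowest.

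With a mean of 339 CPM in the knockdown and 273 CPM in the scrambled libraries, Lars2 weighs heavily in the mitochondrial sum. Over the 16 genes the summed level was 1519, 1416, 1260 and 1189 CPM in the knockdown libraries, against 1318, 1468, 1388 and 1346 CPM in the scrambled libraries, and the groups overlapped. Without Lars2, a choice made after its values were seen, the sum of the other 15 was 1003, 1066, 1048 and 910 CPM in the knockdown libraries, against 1092, 1118, 1117 and 1102 CPM in the scrambled libraries. Every knockdown library then lay below every scrambled one, a description with no test.

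Cytosolic and mitochondrial enzymes for the same amino acid were set against each other in 16 pairs, with Eprs used for both glutamate and proline. The ratio of the mitochondrial to the cytosolic gene was lower in the knockdown in 13 of the 16. By an exact two-sided permutation test over the 8 libraries, whose smallest possible p is 0.0286, Ears2 over Eprs and Wars2 over Wars reached that value (0.229 after Benjamini-Hochberg adjustment over the 16 pairs). At this size at least 10 pairs would have to reach the smallest p for any to pass 0.05 after adjustment, so the adjusted values say little about the pairs. Ears2 was 3.06% of Eprs in the knockdown and 3.42% in the scrambled libraries, and Wars2 was 11.02% of Wars in the knockdown and 12.7% in the scrambled libraries, as ratios of CPM. For arginine, serine, threonine and valine the ratios differed by 0.03 or less on the log2 scale (exact permutation p from 0.657 to 0.886).

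Per kilobase of coding sequence (the longest coding sequence in GENCODE M21), cytosolic members were the more abundant. Nars was highest, at 291 ± 12.6 CPM per coding kilobase in the knockdown and 283 ± 6.82 in the scrambled libraries (SD, n = 4 per group). Hars followed at 254 ± 34.6 in the knockdown and 282 ± 13.2 in the scrambled libraries, so Nars and Hars did not differ beyond their spread. Kars, Gars and Vars came next, at 228 ± 14.5, 245 ± 17.4 and 245 ± 24.5 CPM per coding kilobase in the knockdown and 254 ± 4.65, 243 ± 3.98 and 243 ± 11.5 in the scrambled libraries, again within their spread of each other in the knockdown. The highest mitochondrial genes on this scale were Iars2, Lars2 and Tars2, the only ones above any cytosolic gene, and Pars2 was lowest of all, at 5.72 ± 1.15 in the knockdown and 6.71 ± 0.911 in the scrambled libraries. The place of Lars2 rests on counts that ranked the libraries in the order of CT010467.1, as given above. Only coding length was used for the scale, which for Lars2 is 2706 bases where its exons hold 11089. Cars was the lowest cytosolic gene, at 60.5 ± 5.38 in the knockdown and 68.9 ± 3.27 in the scrambled libraries.

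Among 5 genes of mitochondrial charging, 0 passed the threshold by edgeR or limma-voom. DESeq2 called 1 of the 5 lower, where it called 10.0% of all genes lower. Gatb, Gatc and Qrsl1, of the complex that converts glutamate-charged to glutamine-charged tRNA in mitochondria, were fitted at -0.02, -0.16 and -0.11 on the log2 scale (edgeR adjusted p of 0.898, 0.172 and 0.583). Mtfmt, which formylates initiator methionyl-tRNA, was fitted at 0.07 (edgeR adjusted p = 0.681). Where 7.29% of all genes tested fell and 8.02% rose, 2 of 6 editing and delivery genes fell and 0 rose. They were Prorsd1, named for a domain of prolyl-tRNA synthetases, at 26.2 ± 2.17 CPM in the knockdown and 35.2 ± 2.43 CPM in the scrambled libraries (log2 fold change -0.43, edgeR adjusted p = 0.0164), and Tarsl2, a threonyl-tRNA synthetase-like gene, at 138 ± 14.9 CPM in the knockdown and 169 ± 7.72 CPM in the scrambled libraries (-0.29, 0.0402; SD, n = 4 per group).

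Uncharged tRNA activates the kinase GCN2, encoded by Eif2ak4, which leads to translation of ATF4 and to transcription of amino acid response genes, several synthetase genes among them. Of 5 sensing genes tested, 1 rose, Impact, a known inhibitor of GCN2 activation, where 8.02% of all genes tested rose. Impact was 32.1 ± 1.59 CPM in the knockdown and 24.3 ± 3.34 CPM in the scrambled libraries (SD, n = 4 per group; log2 fold change 0.40, edgeR adjusted p = 0.0343). Of 12 amino acid response targets, 2 rose and 0 fell by edgeR, where 8.02% of all genes rose, the transcription factor gene Atf5 (log2 fold change 0.89, edgeR adjusted p = 0.0287) and the cystine transporter gene Slc7a11 (1.59, 0.00506), with a median of 0.24 over the 12. Atf5 and Slc7a11 were higher in all 4 knockdown mice than in any scrambled mouse. Atf5 was 32.8 ± 8.31 CPM in the knockdown and 17.7 ± 3.56 CPM in the scrambled libraries, and Slc7a11 was 7.95 ± 0.980 CPM in the knockdown and 2.63 ± 0.717 CPM in the scrambled libraries (SD, n = 4 per group). DESeq2 called 3 of the 12 higher and 1 lower, limma-voom 2 higher and 0 lower, and at an unadjusted edgeR p under 0.05 there were 5 higher and 1 lower. The 1 lower at an unadjusted p was Sesn2, which encodes a stress-induced inhibitor of mTORC1, at 42.3 ± 5.55 CPM in the knockdown and 57.0 ± 9.20 CPM in the scrambled libraries (SD, n = 4 per group; log2 fold change -0.43, edgeR adjusted p = 0.0551), with groups that did not overlap. Asns, asparagine synthetase, was fitted at -0.24 (edgeR adjusted p = 0.222).

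The stress-linked targets varied among the knockdown mice. Trib3, a pseudokinase gene, had 13.9, 35.2, 58.4 and 29.2 CPM in knockdown replicates 1 to 4, against 24.3, 11.2, 11.4 and 17.4 CPM in scrambled replicates 1 to 4, and Chac1, which degrades glutathione, had 3.18, 24.2, 28.7 and 6.36 CPM in the knockdown libraries, against 9.13, 3.91, 2.67 and 2.70 CPM in the scrambled libraries. Both were highest in knockdown replicates 2 and 3 and overlapped between the groups. Atf4 itself had 468, 607, 710 and 484 CPM in the knockdown libraries, against 535, 485, 443 and 543 CPM in the scrambled libraries (edgeR adjusted p = 0.401). Knockdown replicate 3, the highest for Trib3, Chac1 and Atf4, was also the knockdown library with the highest cytosolic synthetase sum. Myc, which FUBP1 is known to regulate, measured 204, 146, 96.3 and 251 CPM in the knockdown libraries, against 209, 201, 247 and 254 CPM in the scrambled libraries (edgeR adjusted p = 0.350). Myc was lowest in knockdown replicate 3. Of the targets that rose, Atf5 was highest of the knockdown libraries in that replicate, at 40.2 CPM, and Slc7a11 was lowest, at 7.01 CPM. Whether the synthetase level follows any of these genes was not tested.

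In the authors' deposited table, 5 of the 36 members had an adjusted p under 0.05, all lower: Qars, Farsa, Ears2, Fars2 and Hars2, where 9.43% of all genes with an adjusted p were called lower there. Their log2 fold changes in the authors' deposited table were -0.23, -0.14, -0.32, -0.38 and -0.30.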

How the data were processed

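The authors deposited raw, unnormalized counts of reads for each gene, from 8 libraries; CASAVA 1.8 and DESeq2 1.18.1 are named in the submitters' processing notes. The same deposited table gives the authors' log2 fold changes and their p-values with adjusted p-values. The authors' mean normalized signal and test score columns were deposited too and were not used. The kits were stranded, per the labels' protocols. For the aligner, counting program, strand setting, annotation and build nothing is stated, so reads of overlapping genes cannot be told apart.

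The number in each column name is that of a sample's description, which gave the match, and 0 per-sample columns were left out. Counts were filtered with filterByExpr, scaled by TMM and tested with edgeR 4.0.16 (R 4.3.3) by its robust quasi-likelihood test. P-values were two-sided and adjusted by Benjamini-Hochberg over 13462 genes, with a threshold of 0.05. Each SE is the fold change over the root of F, and 95% intervals use the same test's degrees of freedom. The test was tested on simulated data with known changes. DESeq2 1.42.0, limma 3.58.1 (voom), RLE factors, no filter, a filter at a mean of 1 CPM, a replicate block and leaving out each library were the alternatives.

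Values in every library are given for members past the threshold, for the 2 cytosolic and 2 mitochondrial members with the largest change among the others, and for Eprs, Gars and Kars. Members and lists were chosen with earlier results of these data known; the comparisons in pairs, with Lars2 left out, and with ribosomal and neighbouring genes were added after the data were seen. Positions and coding lengths are from GENCODE M21. Results for some genes of the fixed lists are not reported here.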

Additional observations from a re-analysis of the deposited data

Results flagged for a closer look

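In 72 sets of 4 libraries, one for each member and group, 2 had a library whose gap to the next was above Dixon's 95% critical value of 0.829; chance flags about 1 in 20 such sets. Iars measured 425 CPM in knockdown replicate 3, against 390 to 396 CPM in the other knockdown libraries. Rars measured 196 CPM in knockdown replicate 4, against 227 to 230 CPM in the other knockdown libraries.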

How the results depend on the processing

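The members had at least 196 counts per library and there were 4 mice per group; shifts of this size were called or not depending on the libraries included. The number of genes called over the whole table, 2062, was 3588 with DESeq2, 400 with the replicate block and 526 to 3425 with a library left out. The cytosolic genes called lower, 1, numbered 3 with DESeq2 (Qars, Lars and Farsa), 0 with no low count filter, 0 with the replicate block and 0 to 6 with a library left out. The mitochondrial genes called lower, 3, numbered 2 with no low count filter, where Ears2 lost its call (adjusted p = 0.0661), 0 with the replicate block and 0 to 3 with a library left out. The count of members called higher, 0 by edgeR, was 0 under each alternative, DESeq2 and limma-voom included, and 0 members were higher by edgeR even before adjustment of p at 0.05.

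Replicate numbers gave no pairing: deviations of same-numbered libraries from their group means correlated at -0.401, -0.0328, -0.505 and -0.177, so the replicate block result says nothing of a weaker effect. With it Qars, Ears2, Fars2 and Hars2 had adjusted p of 0.105, 0.123, 0.0730 and 0.109.

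The sign turned in genes fitted near 0. With no low count filter it was -0.0057 for Vars, -0.011 for Gars and -0.016 for Vars2; Vars2 was -0.00056 with limma-voom; Yars was 0.0016 with RLE factors and 0.021 with the filter at 1 CPM, where Cars2 was 0.015. With a library left out the log2 fold change ran from -0.050 to 0.068 for Vars, -0.050 to 0.024 for Yars, -0.045 to 0.047 for Gars, -0.0015 to 0.056 for Nars, -0.057 to 0.023 for Cars2, -0.043 to 0.061 for Vars2, -0.086 to 0.042 for Aars2 and -0.017 to 0.093 for Tars2. The other 28 members kept their sign under every alternative run. The median of all genes lay between -0.022 and 0.0098 under each.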

Other observations

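Several members start head to head with another gene. In GENCODE M21, 8 pairs of a member and a tested gene on the opposite strand have starts within 1000 bases of each other, Hars and Hars2 being one such pair, with starts 197 bases apart and exons that overlap by 195 bases. Fars2 shares its start region with Lyrm4, which encodes a factor of iron-sulphur cluster assembly; their starts lie 114 bases apart and their exons overlap by 115 bases. Lyrm4 had 24.9, 32.1, 34.6 and 23.4 CPM in the knockdown libraries, against 42.4, 43.3, 47.4 and 38.1 CPM in the scrambled libraries, a log2 fold change of -0.57 (SE 0.14, edgeR adjusted p = 0.0272), so both genes of that pair fell. Kars lies 75 bases from Terf2ip, a telomere protein gene, which fell by 0.36 on the log2 scale (edgeR adjusted p = 0.0346) with 1 knockdown library overlapping the scrambled ones. Ears2 lies 88 bases from Ubfd1, which was 94.7 ± 13.9 CPM in the knockdown and 85.8 ± 6.11 CPM in the scrambled libraries (SD, n = 4 per group; edgeR adjusted p = 0.380). Of the other neighbours, Orc3 beside Rars2 was fitted at -0.05, Mrps12 beside Sars2 at 0.06, S100pbp beside Yars at -0.07 and Wdr25 beside Wars at -0.51 (edgeR adjusted p = 0.0881). Over the 8 pairs 3 neighbours were called lower, where 7.29% of all genes tested were. Hars2, counted there as the neighbour of Hars, is itself a member already called lower, so it adds nothing new to that count. The neighbours outside the family called lower were Lyrm4 and Terf2ip. The pairs were examined after the data were seen, and the count had no test. Without a stated strand setting, reads from the overlapping ends of such pairs cannot be told apart.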
